A study of Mus musculus with 76 samples.

Results

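Interferons signal through cell-surface receptors, Janus kinases and the Stat and Irf transcription factors to a large set of antiviral effector genes. The transcripts of this pathway were examined in 76 single mouse cells called iHPCs. The table listed 15192 genes, and 57 of them were taken by symbol: the chains of the interferon alpha and gamma receptors, the Stat genes, the Irf genes without Irf8, and the Ifi, Ifit, Isg, Oas and Gbp families with Ifih1, Usp18, Rsad2, Mx1 and Mx2. The rule of names used no measured value, but it was set with earlier results of these data known. It took in 4 genes that share only part of a name with the pathway, namely Irf2bp1, Irf2bp2 and Irf2bpl, which encode partners of an Irf protein or relatives of them, and Isg20l2, a nuclease gene related to Isg20.

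The cells form 1 group. Per the labels, they were sorted from cultures of progenitors made from pluripotent stem cells in which Runx1, Hoxa9 and Hoxa10 can be induced, and no interferon or other stimulus and no unstimulated control are named. Per the labels the same 3 introduced factors apply to all cells, so nothing here can be set against cells without them. No culture, animal or sort is named for any cell, so the group counts as 1 sample, and nothing is tested over cells. The intervals on shares cover the counting of cells only and not the spread between cultures. Values are TPM, transcript shares scaled for gene length and to 1000000 per cell, so levels of different genes can be set in order. Library depth is not kept in TPM and is unknown.

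In the type I pathway, interferon alpha or beta binds a receptor of the Ifnar1 and Ifnar2 chains, and a complex of Stat proteins with Irf9, called ISGF3, binds an interferon-stimulated response element (ISRE). In the gamma pathway, the Ifngr1 and Ifngr2 chains lead to paired Stat proteins that bind a gamma-activated site (GAS). In blood stem and progenitor cells, interferons are known to change cell division, and stem cells are known to carry part of the antiviral program without stimulation.

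Sequence tables gave RefSeq promoter windows, from 250 bases before to 50 bases after a start of a gene (GRCm38.p6), for 43 of the 57 genes. Some genes have several starts and windows, and a gene was counted if any of its windows held a form. A common ISRE form, GAAA followed after any 2 bases by GAAA, read on both strands, was found in windows of 17 of the 43 genes (39.5%), against 3.99% of the 27025 genes with a window and 4.21% of the 2637 listed genes with a window that were detected in at least 50% of the cells. Effector genes held it in 14 of 22 cases, and receptor, Stat and Irf genes in 3 of 17 (Stat2, Stat4 and Irf2). The GAS form TTCNNNGAA, also read on both strands, was in windows of 10 of the 43 genes (23.3%), against 9.55% of all genes. The 2 forms were counted separately, and overlapping copies count in each. A match is a description of letters and not a measured binding site. Stretches before a RefSeq start are shown for effector genes found in few cells (Ifit1, Ifit3, Rsad2, Isg15, Oas1a). They stand beside members with the same letters found in many (Gbp7, Ifi203, Stat4), with Irf1 for the GAS form. For Ifit3, Oas1a, Ifi203 and Stat4 the start used lies inside the span of the gene. In Stat4 it lies far inside (span 51987106 to 52107189). Cell counts are per gene and not per start. Capitals mark the ISRE form, and in Irf1 the GAS form. The stretches of Gbp7 and Oas1a also hold 2 GAS forms and 1, left in lower case. Each stretch is printed 5′ to 3′ in the direction of the gene.
Ifit1, chr19:34640734-34640833, plus strand: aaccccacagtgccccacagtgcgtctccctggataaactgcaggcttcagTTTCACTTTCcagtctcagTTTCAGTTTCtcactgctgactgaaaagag
Ifit3, chr19:34583337-34583436, plus strand: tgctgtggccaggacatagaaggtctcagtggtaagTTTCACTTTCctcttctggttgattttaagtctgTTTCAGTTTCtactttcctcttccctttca
Rsad2, chr12:26456543-26456642, minus strand: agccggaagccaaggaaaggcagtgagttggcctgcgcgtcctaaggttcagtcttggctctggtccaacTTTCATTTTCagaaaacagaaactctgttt
Isg15, chr4:156200855-156200954, minus strand: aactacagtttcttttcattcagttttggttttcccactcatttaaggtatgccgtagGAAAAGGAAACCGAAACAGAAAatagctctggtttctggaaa
Oas1a, chr5:120907526-120907625, minus strand: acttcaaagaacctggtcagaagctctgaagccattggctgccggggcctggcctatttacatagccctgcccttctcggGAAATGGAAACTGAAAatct
Gbp7, chr3:142530213-142530312, plus strand: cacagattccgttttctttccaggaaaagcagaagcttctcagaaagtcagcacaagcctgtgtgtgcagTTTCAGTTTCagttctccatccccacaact
Ifi203, chr1:173942498-173942597, minus strand: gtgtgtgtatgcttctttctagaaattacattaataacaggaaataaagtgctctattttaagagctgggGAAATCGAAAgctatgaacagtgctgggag
Stat4, chr1:52008073-52008172, plus strand: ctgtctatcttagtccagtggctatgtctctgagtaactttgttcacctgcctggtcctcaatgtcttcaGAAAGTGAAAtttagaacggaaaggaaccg
Irf1, chr11:53769853-53769952, plus strand: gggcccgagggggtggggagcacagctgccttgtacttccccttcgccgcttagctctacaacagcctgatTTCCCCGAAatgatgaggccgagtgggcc
Ifit1 and Ifit3 each held 2 ISRE forms in the stretch, Isg15 held 3 that overlap and Oas1a 2 that overlap. Across the 17 members with the form, the number of cells with the transcript ran from 1 to 46, with a median of 10. Across the 26 with a window but without it, the number ran from 0 to 72, with a median of 32. The 2 sets differ in role, since effector genes were 14 of the 17 but 8 of the 26. Among effector genes alone, the median was 7 cells for the 14 with the form and 12.5 for the 8 without it.

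Detection in a cell means a value of at least 1 TPM. By this rule 52 of the 57 genes were detected in at least 1 cell (background: 81.2% of all listed genes), and 5 in none. Detection in at least 50% of the cells was reached by 14 of the 57, or 24.6%, which lies near the 23.1% of all listed genes. At 10 TPM, 7 of the 57 did so, against 19.8% of all listed genes. The roles differed: 8 of the 19 receptor, Stat and Irf genes (42.1%) and 4 of the 34 effector genes (11.8%) were in at least 50% of the cells. At 10 TPM it was 4 of the 19 and 3 of the 34. The median gene of the first set was in 33 cells (31 at 10 TPM) and that of the second in 5.5 (3 at 10 TPM). Within the first set, 3 of the 4 receptor genes, 1 of the 7 Stat genes (14.3%) and 4 of the 8 Irf genes were in at least 50% of the cells. The Stat share at this cut lay below that of all listed genes, but it rests on 7 genes. The median Stat gene was in 31 cells (23 at 10 TPM), against 11 cells (8 at 10 TPM) for the median of all listed genes. Detection in at least 20% of cells was reached by 6 of the 7 Stat genes, against 43.2% of all listed genes. Most effector transcripts were thus found in few cells.

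**Figure D1:**
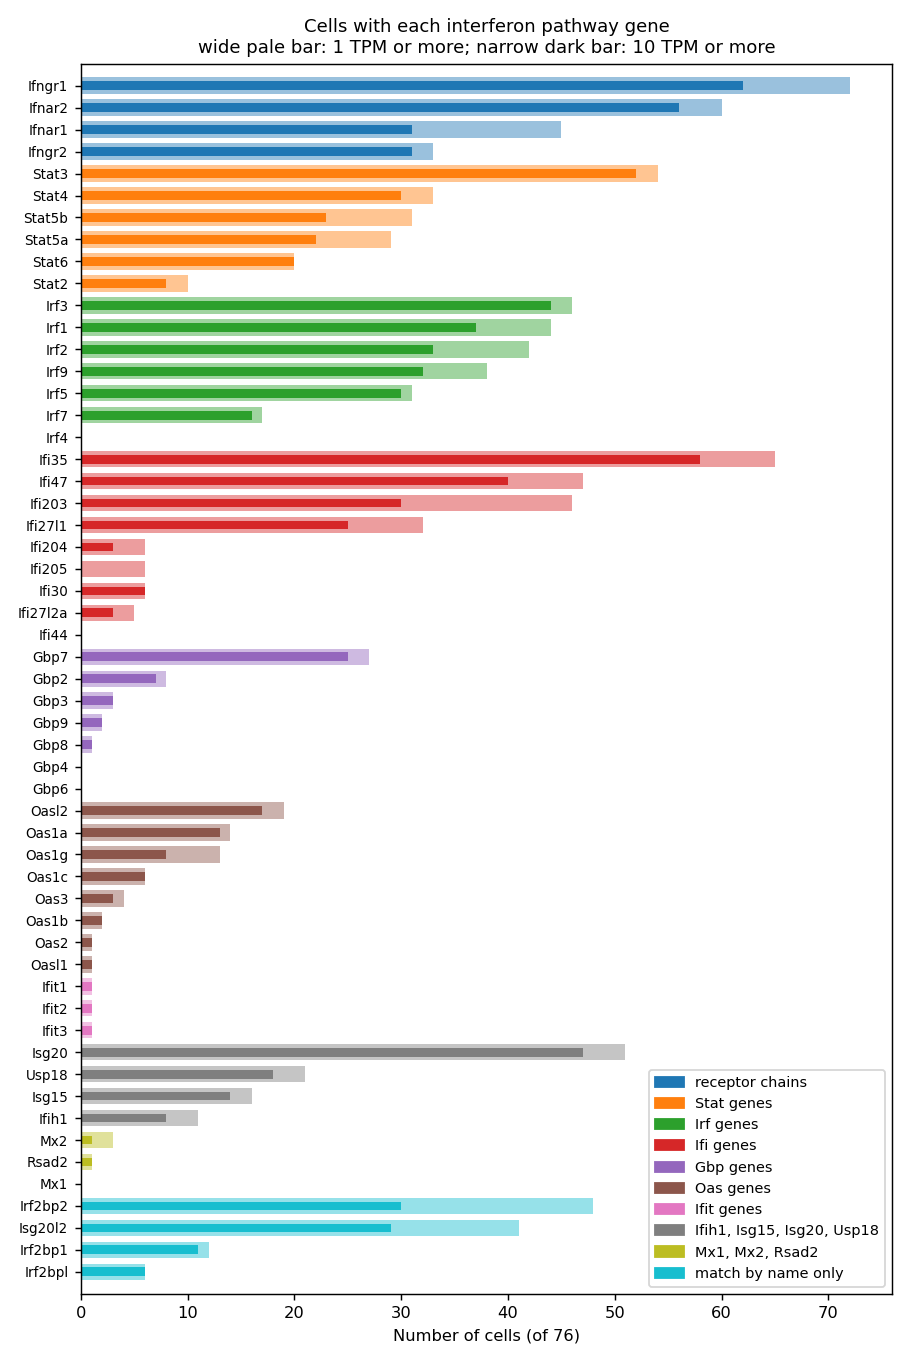
Number of the 76 cells (horizontal axis) in which each of 55 of the 57 genes (vertical axis, coloured by role) reached 1 TPM (wide pale bar) or 10 TPM (narrow dark bar). Ifngr1 reaches 72 cells and Ifi35 65, while the 3 Ifit genes are in 1 cell each.

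Genes of blood cells were present throughout: Arhgdib, Coro1a, Lsp1, Laptm5 and Cd53 were detected in all 76 cells and Ptprc, the gene of the CD45 antigen, in 66. Of the progenitor markers Cd34 and Cd48 were in 76, Ly6a in 65 and Kit in 43. The table listed 6 macrophage markers, of which Adgre1 was in 60 cells, Cd68 in 25, Csf1r in 20, C1qa in 1, and C1qb and Mrc1 in 0. Their summed level ran from 0 to 2284 TPM over cells. The number of genes detected ran from 2465 to 5992 per cell. Titles of cells carry a letter and a number in the form of a plate position. For 22 members at 10 TPM in 1 to 8 cells, the values of the other cells were pooled over genes. Of 727 values from cells that shared the letter or number of a high cell, 9.90% were above 0 but under 10 TPM. Of 871 values from cells that shared neither, 1.61% were. Members with more high cells give more values to the first set, so the 2 sets differ in their mix of genes. No comparison within a gene was made. The count at 10 TPM is therefore given beside the count at 1 TPM for the members and for the pathway genes named further on. What part these low values have in a result was not tested.

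Receptor chains were the most widely found role. Ifngr1, the ligand-binding chain of the gamma receptor (chromosome 10, 19591949 to 19610229), had a lowest value of 0.48 TPM, a median of 170.5 TPM and a highest of 1267 TPM. It was detected in 72 of 76 cells (94.7%, exact Clopper-Pearson 95% interval 87.1 to 98.6%), and in 62 at 10 TPM. It was the only member above 0 in every cell. The lowest value of every other member was 0, which in TPM can also be a failed capture.

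Ifnar2, the chain of the alpha and beta receptor that exists in a long signalling and shorter forms, had a median of 115.7 TPM and a highest value of 733 TPM, and was in 60 cells (56 at 10 TPM). Its partner Ifnar1 was lower, with a median of 2.60 TPM and a highest value of 151 TPM, in 45 cells (31 at 10 TPM). Ifngr2, the signalling chain of the gamma receptor, had a median of 0.51 TPM and a highest value of 368 TPM, in 33 cells (31 at 10 TPM). Each receptor thus had 1 chain found in most cells and 1 found in fewer. Ifnar2, Ifnar1 and Ifngr2 are neighbours on chromosome 16, between positions 91372783 and 91564007.

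Both chains of the alpha and beta receptor were detected together in 35 cells (46.1%, interval 34.5 to 57.9%), where the product of the 2 shares would give 35.5 cells. At 10 TPM it was 21 cells against 22.8. The share at 1 TPM was 59.5% in cells with title numbers 2 to 6 and 33.3% in those with 7 to 11, a split of this share that was added after seeing the data. Both gamma chains were together in 29 cells against 31.3, and in 22 at 10 TPM against 25.3. Detection of 1 chain thus went with detection of the other about as often as their separate shares give. Since Ifngr1 was in 72 cells, the gamma count at 1 TPM could vary little. Spearman's rho over cells, a correlation of ranks, was -0.22 for Ifngr1 with Ifngr2 and -0.068 for Ifnar1 with Ifnar2. All 4 chains were detected in 13 cells, and no cell lacked both gamma chains at 1 TPM. Both chains of the alpha and beta receptor were missing in 6 cells. At 10 TPM both gamma chains were missing in 5 cells and both alpha and beta chains in 10.

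**Figure D2:**
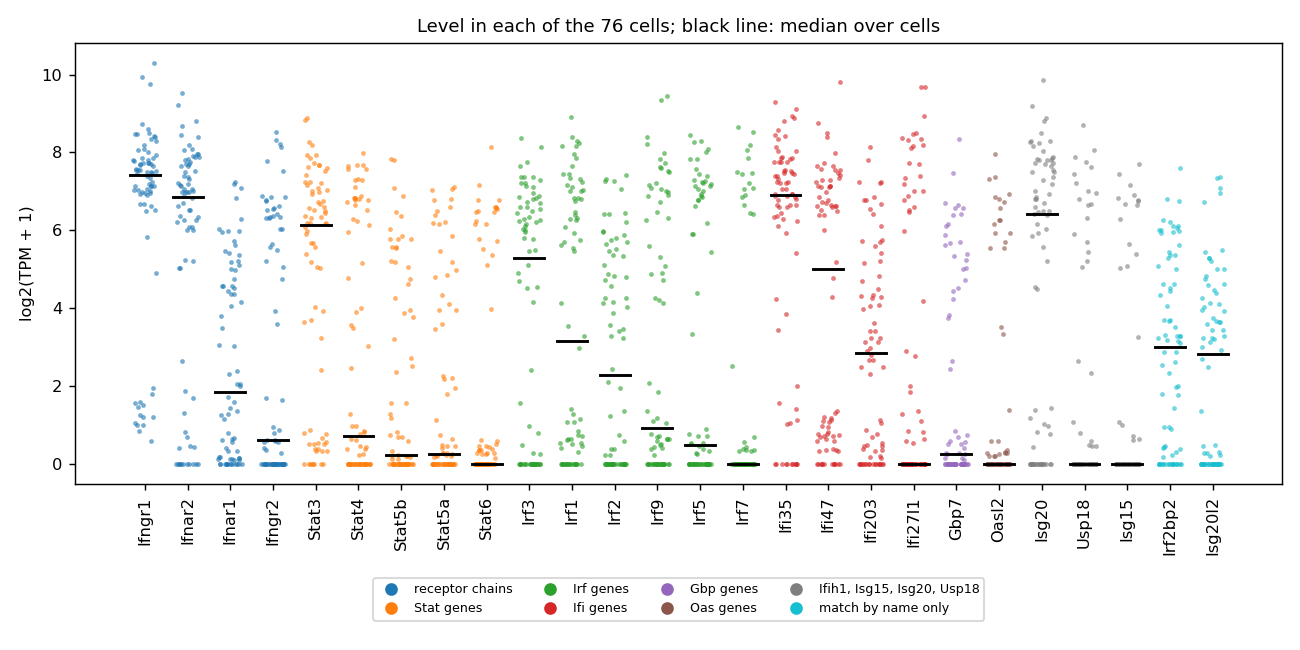
Level of 26 of the 27 genes detected in at least 20% of cells, as log2(TPM + 1) (vertical axis), with 1 point for each of the 76 cells and a black line at the median. Most genes have a set of cells at or near 0 and a second set well above it. Of the 4332 values of all 57 genes, 64.8% were 0 and 22.7% were at 10 TPM or more, with 4.32% from 1 to 10 TPM. Over all listed genes the 3 shares were close to these, at 66.3%, 24.3% and 3.48%.

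Among the Stat genes, Stat3, which carries signals of interleukin 6 and related cytokines, was found in most cells. Its median was 69.1 TPM and its highest value 475 TPM, in 54 cells (71.1%, interval 59.5 to 80.9%; 52 at 10 TPM). Stat4, the factor of interleukin 12 signalling, had a median of 0.63 TPM and reached 254 TPM, in 33 cells (30 at 10 TPM). Stat3 was thus found in more cells than Stat4, and with a far higher median.

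Stat5a and Stat5b act downstream of cytokine receptors such as those of thrombopoietin and interleukin 3. Stat5b was in 31 cells (23 at 10 TPM; median 0.16 TPM, highest 226 TPM) and Stat5a in 29 (22 at 10 TPM; median 0.20 TPM, highest 136 TPM). The pair have closely related sequences, and how reads were assigned between them is not given in the sources used here. Both were detected in the same cell 16 times, against 11.8 from independent shares, and at 10 TPM 8 times against 6.66. Stat6, the factor of interleukin 4 signalling, was in 20 cells, all at 10 TPM, with a median of 0 and a highest value of 282 TPM.

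Stat2, which serves mainly the alpha and beta pathway, was rarer than Stat3 and Stat4. It was in 10 cells (13.2%, interval 6.49 to 22.9%; 8 at 10 TPM), with a median of 0 and a highest value of 211 TPM. Stat2 and Irf9, both parts of ISGF3, were detected together in 6 cells (7.89%, interval 2.95 to 16.4%), where independent shares would give 5, and at 10 TPM in 4 against 3.37. Neither was detected in 34 cells. Counted at 10 TPM, a cell held a median of 2 Stat genes, with a range from 0 to 6.

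Stat5b, Stat5a and Stat3 follow each other on chromosome 11 (100780731 to 100939594). Correlations between these neighbours were low. Spearman's rho over the 76 cells was 0.091 for Stat3 with Stat5a, 0.11 for Stat3 with Stat5b and 0.18 for Stat5a with Stat5b. These are descriptions over cells of 1 sample, which share differences in depth, and carry no p-value.

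Of the 8 Irf genes, 4 were in at least 50% of cells. Irf3, which is activated by sensors of viral nucleic acid, was in 46 cells (44 at 10 TPM), with a median of 38.3 TPM and a highest value of 329 TPM. Irf1, an early target of interferon gamma, was in 44 cells (37 at 10 TPM), with a median of 7.81 TPM and a highest value of 484 TPM. Irf2, known as an antagonist of Irf1 that helps to keep stem cells quiescent, was in 42 cells (33 at 10 TPM), with a median of 3.85 TPM and a highest value of 172 TPM.

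Irf9, the DNA-binding part of ISGF3, was in 38 cells (50%, interval 38.3 to 61.7%; 32 at 10 TPM), with a median of 0.87 TPM and a highest value of 702 TPM. Irf5, a factor of myeloid and B cells, was in 31 (30 at 10 TPM), with a median of 0.39 TPM and a highest value of 351 TPM. Irf7, which amplifies interferon alpha production, was in 17 cells (22.4%, interval 13.6 to 33.4%; 16 at 10 TPM), with a median of 0 and a highest value of 399 TPM. In the cells that detected it, Irf7 had a median of 148 TPM, against 87.4 TPM for Irf3, 109 TPM for Irf1, 30.8 TPM for Irf2, 111 TPM for Irf9 and 141 TPM for Irf5. Irf7 was thus rarer than these genes but not lower where it was found.

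Irf4, a factor of plasma cells and activated lymphocytes, was at 0 in all 76 cells, which allows a share of up to 3.95% (a floor of 3 counts of 76; the upper end of the exact interval is 4.74%). Irf8, the myeloid and dendritic factor kept out of the set, was in 44 cells (42 at 10 TPM) with a median of 22.9 TPM, close to the count for Irf1. A cell held a median of 2 Irf genes of the set at 10 TPM, with a range from 0 to 5.

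Cells with title numbers 2 to 6 (37 cells) and 7 to 11 (39 cells) were not alike for Irf9 and some others. Irf9 was in 26 of the 37 (70.3%, median 25.5 TPM) and 12 of the 39 (30.8%, median 0.30 TPM). At 10 TPM the counts were 20 and 12. Ifi47 was in 28 and 19 cells (26 and 14 at 10 TPM), Irf7 in 12 and 5 (11 and 5 at 10 TPM), and Irf3 in 26 and 20 (25 and 19 at 10 TPM). Stat3 (26 and 28; 25 and 27 at 10 TPM) and Isg15 (7 and 9; 7 and 7 at 10 TPM) did not follow this direction. The median cell held 4307 detected genes in numbers 2 to 6 and 4004 in numbers 7 to 11. Neither the part of depth nor that of the title in these differences was tested.

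Of the 34 effector genes, 4 were in at least 50% of cells: Ifi35, Isg20, Ifi47 and Ifi203. The Ifi genes are a group named for induction by interferon rather than for related proteins. Ifi35, whose protein interacts with the leucine zipper protein Nmi, was in 65 cells (85.5%, interval 75.6 to 92.5%; 58 at 10 TPM), with a median of 118.9 TPM and a highest value of 630.3 TPM. Ifi47, an immunity-related GTPase gene, was in 47 (40 at 10 TPM), with a median of 30.9 TPM and a highest value of 901 TPM. Ifi203, of the DNA-binding HIN-200 family, was in 46 cells but only 30 at 10 TPM, with a median of 6.19 TPM and a highest value of 279 TPM. By median level, Ifi35 stood beside Ifnar2 and below Ifngr1, and the interquartile ranges of the 3 overlapped (16.7 to 215, 4.56 to 202 and 101 to 226 TPM).

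Ifi27l1 was in 32 cells (25 at 10 TPM), with a median of 0 and a highest value of 817 TPM, so that most of the cells that detected it were high. The other 5 Ifi genes were in 0 to 6 cells. Ifi204, of the HIN-200 family, was in 6 cells, 3 of them at 10 TPM, with a highest value of 300.4 TPM. Its relative Ifi205 was also in 6 but never above 4.63 TPM. Ifi30, a lysosomal thiol reductase gene of antigen processing, was in 6 cells, all at 10 TPM, and Ifi27l2a in 5 (3 at 10 TPM). Ifi44 was at 0 in every cell. Ifi204, Ifi203 and Ifi205 are neighbours on chromosome 1 (173747293 to 174031755), so among the members a frequent gene lay between 2 rare ones.

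The guanylate-binding proteins are large GTPases that act against microbes within cells and are induced above all by interferon gamma. Gbp7 was in 27 cells (25 at 10 TPM), with a median of 0.18 TPM and a highest value of 322 TPM. The other 6 were rare: Gbp2 was in 8 cells (7 at 10 TPM; highest 223 TPM), Gbp3 in 3 (118 TPM), Gbp9 in 2 (61.4 TPM) and Gbp8 in 1 (160 TPM), the last 3 genes with the same counts at 10 TPM. Gbp4 and Gbp6 reached 1 TPM in no cell. Gbp7, Gbp3 and Gbp2 are neighbours on chromosome 3 (142530336 to 142638008), and RefSeq windows of all 3 hold the ISRE form, the frequent Gbp gene and the rare ones alike.

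The Oas genes encode synthetases of 2′-5′ oligoadenylates, or relatives of them, that act against viral RNA. None was frequent. Oasl2 was in 19 cells (25%, interval 15.8 to 36.3%; 17 at 10 TPM), with a median of 0 and a highest value of 247 TPM. Oas1a was in 14 (13 at 10 TPM; highest 194 TPM), Oas1g in 13 (8 at 10 TPM; highest 24.8 TPM), Oas1c in 6, Oas3 in 4 (3 at 10 TPM), Oas1b in 2, and Oas2 and Oasl1 in 1 each. Oas1c, Oas1b, Oas2 and Oasl1 had the same counts at 10 TPM.

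Oas1a and Oas1g, which are near-identical neighbours on chromosome 5 (120876142 to 120907544), cannot be counted as separate findings. All 13 cells with Oas1g also had Oas1a, and the ratio of Oas1g to Oas1a in them lay between 0.091 and 0.19, with a median of 0.13. Only 1 cell with Oas1a at 1 TPM had no Oas1g at that level. Reads of the pair can be exchanged, and the part this has in the ratio was not tested.

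**Figure D3:**
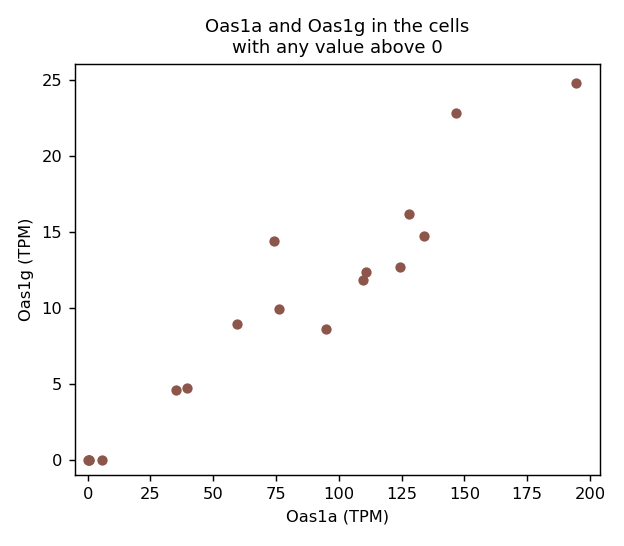
Oas1g (vertical axis, TPM) against Oas1a (horizontal axis, TPM) in the cells with any value above 0 for either gene. The points rise together, at a ratio of Oas1g to Oas1a between 0.091 and 0.19 in the 13 cells with Oas1g.

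The Ifit genes, Rsad2 and the Mx genes were each detected in 0 to 3 cells. They are among the genes used as a sign of a type I response. Not all genes used so were this rare, since Oasl2 was in 19 cells (17 at 10 TPM), Irf7 in 17 (16 at 10 TPM) and Oas1a in 14 (13 at 10 TPM). Counts of 0 or 1 cell were common among all genes. Of the 15192 listed genes, 2850 were in 0 cells and 1136 in 1 cell, so the low counts do not mark these genes out. Ifit1, Ifit2 and Ifit3, whose proteins bind foreign RNA and limit its translation, were each detected in 1 cell (1.32%, interval 0.033 to 7.11%), at 157, 42.2 and 53.1 TPM, and in 3 different cells, titled C2, H4 and A3. Rsad2, the gene of viperin, was in 1 cell at 111.5 TPM. Mx2, an antiviral GTPase gene, was in 3 cells, 1 of them at 10 TPM (57.8 TPM), and Mx1 was at 0 in all 76. The 3 Ifit genes lie side by side on chromosome 19 (34550550 to 34650009).

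Isg15, a ubiquitin-like modifier, and Usp18, the protease that removes it and also dampens Ifnar2 signalling, were found more often. Isg15 was in 16 cells (21.1%, interval 12.5 to 31.9%; 14 at 10 TPM), with a median of 0 and a highest value of 206 TPM. Usp18 was in 21 (18 at 10 TPM), with a median of 0 and a highest value of 414 TPM. Both reached 10 TPM in 6 cells, where independent shares would give 3.32. Isg15 with Oasl2 did so in 8 cells against 3.13.

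Isg20, a 3′-5′ exonuclease gene, was second among the effectors to Ifi35 in its number of cells. It was in 51 cells (67.1%, interval 55.4 to 77.5%; 47 at 10 TPM), with a median of 84.2 TPM and a highest value of 938 TPM. Ifih1, the gene of the RNA sensor MDA5, was in 11 (8 at 10 TPM), with a highest value of 92.1 TPM. Among the genes taken by name only, Irf2bp2 was in 48 cells (30 at 10 TPM; median 6.94 TPM, highest 192 TPM) and Isg20l2 in 41 (29 at 10 TPM; median 6.00 TPM, highest 165 TPM). Irf2bp1 was in 12 (11 at 10 TPM) and Irf2bpl in 6, all at 10 TPM. Without these 4 genes, 12 of 53 members were in at least 50% of cells.

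At 1 TPM the median cell had 4182.5 of all 15192 listed genes. Of the 57 genes a cell held a median of 15 at 1 TPM, from 7 to 27, and a median of 13 at 10 TPM. The number followed the genes detected in the cell, with rho 0.50 and Pearson's r 0.54 (r 0.54 after leaving out the 2 cells most distant in genes detected), as a description over 76 cells. For effector genes at 10 TPM the rho with genes detected was 0.23 and r 0.32. The summed level of all 57 genes ran from 701 to 4020 TPM per cell with a median of 1477 TPM. The effector genes gave a median of 556 TPM of it and the receptor, Stat and Irf genes 834 TPM.

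Effector genes at 10 TPM numbered a median of 4 per cell. In 3 cells there was none, in 3 there was 1, and 3 cells held 10 or more: A3 with 12, C3 with 11 and C2 with 10. Cell A3 held Ifit3 (53.1 TPM), Oasl1 (138 TPM), Isg15 (173 TPM), Usp18 (267 TPM), Ifih1 (92.1 TPM) and Irf7 (399 TPM, the highest of all cells). Cell C2 held Ifit1 (157 TPM), Gbp2 (139 TPM), Oasl2 (121 TPM) and Irf7 (233 TPM). Cell C3 held Mx2 (57.8 TPM), Oas2 (39.2 TPM), Gbp9 (23.3 TPM) and Irf7 (114 TPM). Irf9 was at 212 TPM in A3, 47.2 TPM in C2 and 78.4 TPM in C3.

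These cells were picked for their number of effector genes, so the listing is a description. A3 and C3 were among the cells with most genes detected (5459 and 5871), and C2 had 4632. A3 and C3 share a title number, and C2 and C3 a letter. Mx2, high in C3, stood at 1.46 TPM in C2, and Oas2 at 0.61 TPM. Ifit1, Ifit3, Oas2 and Oasl1 were detected in no other cell than these, so that without the 3 cells 9 of the 57 genes were detected in none. Cell B11, with Rsad2, also had the highest Usp18 value (414 TPM) and Isg15 at 119 TPM.

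**Figure D4:**
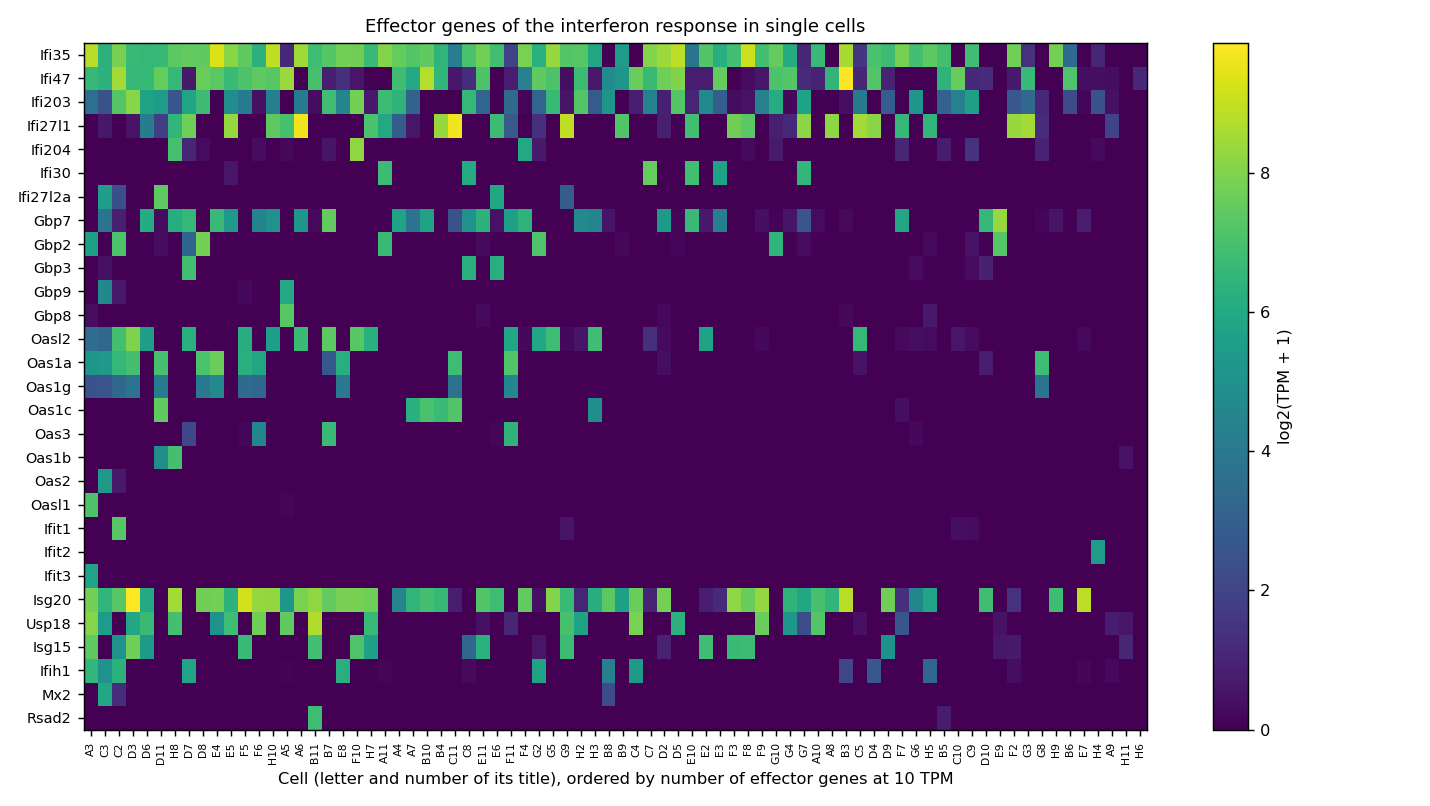
Level, as log2(TPM + 1) by colour, of the 29 effector genes that reach 10 TPM in at least 1 cell (rows) in the 76 cells (columns), ordered by the number of such genes at 10 TPM. Ifi35, Ifi47 and Isg20 run across most columns, and the Ifit, Mx2, Rsad2 and Oasl1 rows hold 1 high cell each.

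**Figure D5:**
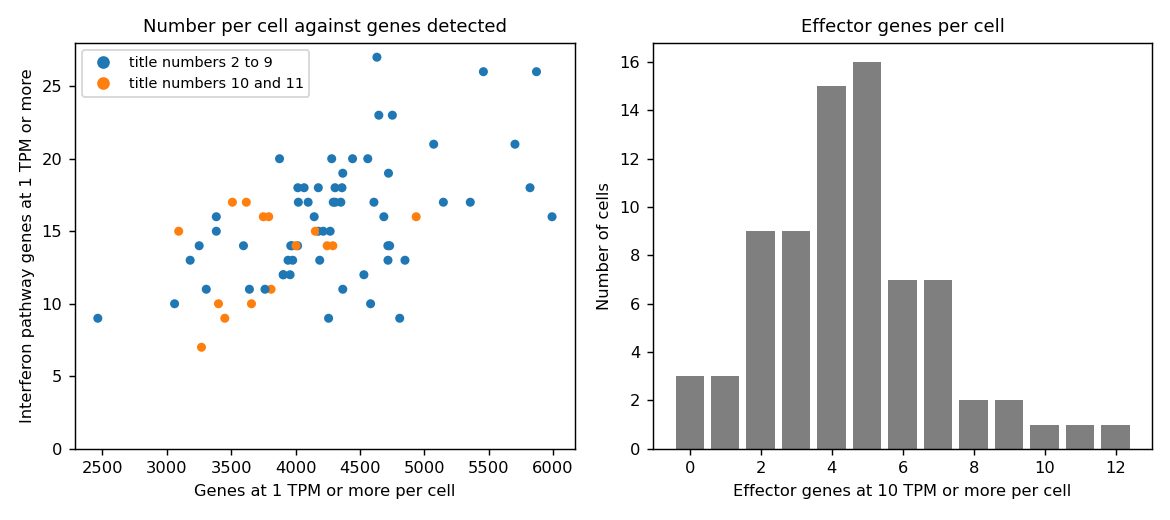
Left, number of the 57 genes at 1 TPM or more (vertical axis) against genes detected (horizontal axis) in each cell. Right, number of cells by the count of effector genes at 10 TPM or more, with a median of 4 and 3 cells at 10 to 12.

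Whether members varied together was described over the 27 genes in at least 20% of cells. The median rho of their 351 pairs was 0.032, against 0.012 for all pairs of the 6570 genes found as widely. Among all pairs of those genes 5% lay above 0.21, and 29 of the 351 pairs did so (8.26%). For the 36 pairs of effector genes the share was 13.9%, and for the 120 pairs of receptor, Stat and Irf genes 2.50%. Weak correlations in sparse data are given as values only.

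The 5 highest rho values each included at least 1 effector gene. They were 0.43 for Ifi203 with Oasl2, 0.40 for Irf7 with Oasl2, 0.40 for Irf9 with Oasl2, 0.39 for Ifi27l1 with Stat6 and 0.36 for Irf7 with Isg20. In title numbers 2 to 6 the 5 values were 0.56, 0.29, 0.36, 0.42 and 0.47, and in numbers 7 to 11 they were 0.32, 0.47, 0.36, 0.39 and 0.28, in the same order. Without cells A3, C2 and C3 they were 0.40, 0.34, 0.37, 0.40 and 0.35. Oasl2, the most frequent Oas gene, was in 3 of the 5 pairs. At 10 TPM, Irf9 and Oasl2 were together in 13 of the 17 cells with Oasl2 and of the 32 with Irf9. Independent shares would give 7.16. The pair was picked for its high rho in these same cells, so the count restates that rho and adds no separate support. Both genes were also more frequent in title numbers 2 to 6 than in 7 to 11 (at 10 TPM, Oasl2 in 11 and 6 cells, Irf9 in 20 and 12). The lowest values were -0.24 for Ifi35 with Stat5a, -0.24 for Oasl2 with Stat5b and -0.23 for Ifi203 with Ifnar1. In title numbers 2 to 6 these were -0.31, -0.14 and -0.074, and in numbers 7 to 11 -0.17, -0.43 and -0.43.

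Other genes of the pathway were counted from lists set by role. Their counts of genes in at least 50% of cells stand beside the 23.1% of all listed genes. Of 10 signalling genes, 5 (50%) were in at least 50% of cells. They included Ptpn6, a phosphatase gene (73 cells, 69 at 10 TPM, median 361 TPM), the suppressor Socs1 (57 cells, 53 at 10 TPM, 88.8 TPM), the phosphatase gene Ptpn2 (56 cells, 54 at 10 TPM, 145 TPM) and the kinase gene Jak1 (52 cells, 43 at 10 TPM, 25.8 TPM). The kinase genes Tyk2 and Jak2, whose products partner the receptors beside Jak1, were in 11 and 6 cells (9 and 5 at 10 TPM). Negative regulators were not alike, since the suppressor genes Socs3 and Cish were in 18 and 36 cells (17 and 31 at 10 TPM).

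Of 13 sensing genes listed, 2 (15.4%) were in at least 50% of cells, Tmem173, the gene of STING (70 cells, 66 at 10 TPM, median 211 TPM), and the adaptor gene Myd88 (50 cells, 44 at 10 TPM, 72.2 TPM). Tbk1, a kinase gene, was in 33 (28 at 10 TPM) and Mb21d1, the gene of the DNA sensor cGAS, in 16 (13 at 10 TPM). Of the 11 interferon genes on the list, the table listed 2. Ifnk was detected in 0 cells and Ifnz in 3 (1 at 10 TPM), and no statement can be made on the genes not listed.

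Of 29 further interferon-stimulated genes, 9 (31%) were in at least 50% of cells, a share not far from the 23.1% of all listed genes. Ly6e (76 at 10 TPM, median 919 TPM) and Shisa5 (71 at 10 TPM, 311 TPM) were in all 76 cells, and Plscr1 (67 at 10 TPM, 331 TPM) and Slfn2 (68 at 10 TPM, 464 TPM) in 75. The chemokine gene Cxcl10 was in 1 cell and not at 10 TPM. Of 17 GTPase and class I antigen presentation genes induced by interferon gamma, 12 (70.6%) were in at least 50% of cells. B2m (76 at 10 TPM, median 1434 TPM), the proteasome subunit gene Psmb8 (74 at 10 TPM, 913 TPM), H2-K1 (67 at 10 TPM, 239 TPM) and H2-D1 (69 at 10 TPM, 265 TPM) were in all 76 cells, whereas Iigp1, Nlrc5 and Ciita were in 0. Many of these genes are known to be expressed without interferon, so their presence is given as a level only.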

How the data were processed

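RNA of 76 single cells was measured. Per the labels' protocols, amplification used the Discover-sc WTA Kit V2 and library construction a TruePrep kit (both Vazyme). The authors deposited 1 table of TPM, and each column sums to 1000000. The submitters' processing notes name the build mm10 and the tools StringTie 1.3.4, HISAT2 2.1.0, SAMtools 0.1.19 and bcl2fastq. Their order, the gene annotation used and filters on genes: not given in the sources used here. Every column matched 1 cell's title. Depth is unknown, since TPM does not keep it.

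Members were taken by symbol, and positions and promoter windows came from RefSeq tables of GRCm38.p6, the assembly that mm10 names. Of the 57 genes, 56 matched a RefSeq symbol. Detection was 1 TPM, with 10 TPM beside it. Shares carry exact Clopper-Pearson 95% intervals. Pairs were described by Spearman's rho of log2(TPM + 1) for genes in at least 20% of cells. Values are given for these genes, and the others by role. For other lists up to 4 genes are named, and Tyk2, Jak2, Socs3, Cish, Cxcl10, Iigp1, Nlrc5 and Ciita were named after their values were seen. Some genes taken by the symbols are counted but not reported here by name. The members, lists, combinations of genes counted together and cells singled out were chosen with earlier results of these data known. Without a test, a count was taken to have moved when it changed by over 1.5 times, a share when it left its interval and a rho when it changed by over 0.05. The pairwise rho was tested on shuffled values of these data, with a shared component added to a set of genes. The other procedures were not tested this way. Python 3.11.15, pandas 2.3.3, numpy 2.4.6, scipy 1.17.1 and matplotlib 3.10.9 were used.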

Additional observations from a re-analysis of the deposited data

How the results depend on the processing

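Alternatives were detection at any value above 0, at 5 or at 10 TPM, restriction to the deeper cells (3500 genes or more), title numbers 2 to 6 or 7 to 11, and leaving out the genes taken by name only. Leaving out title numbers 10 and 11, or cells A3, C2 and C3, was added after seeing the data, as were the count of effectors per cell and the share of cells with both receptor chains, each with its alternatives. The number of genes in at least 50% of cells was 14 and fell to 7 at 10 TPM. The number in 0 cells was 5, and it was 3 at any value above 0, 13 in title numbers 7 to 11 and 9 without cells A3, C2 and C3. The last 2 settings hold 39 and 73 cells, and those left out in the last were picked for their effector genes. The median per cell stayed between 13 and 19.5 of 57. The median rho ran from -4.61e-05 in title numbers 7 to 11 to 0.050 in numbers 2 to 6. Shares of single genes left their interval for 22 of 57 genes at any value above 0, each higher, for 6 at 10 TPM, each lower, and for 11 in title numbers 7 to 11, each lower. No median level of the 27 genes moved by more than 1 SD of log2(TPM + 1) over cells. This held after rescaling without ribosomal-protein genes and in cells with at least 3500 genes. Most values were 0 or at 10 TPM or more, so this rule is loose and does not show that the medians were stable. In cells with at least 3500 genes the median of Ifi47 was 82.4 TPM, against 30.9 TPM in all cells. That of Ifngr1 was 151 TPM, against 170.5 TPM. Depth per library is unknown, so an undetected transcript is not shown to be absent.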
